A study of Mus musculus with 2 samples.

Results

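The interferon-inducible genes Isg15, Ifit1, Ifit3, Rtp4, Oasl2, Irf7 and Bst2 were followed across cells of mouse skin epidermis, as 7 of the 32286 features counted in 2 droplet RNA-seq libraries. They were taken by name. The GOF library came from mice with Involucrin-CREER/Rosa-SmoM2 plus Krt14rtTA and Survivin GOF, and the control library from mice with Involucrin-CREER/Rosa-SmoM2 alone, so the cells of both carried SmoM2, an active form of the hedgehog transducer Smoothened, under a Cre recombinase driven by the involucrin promoter. The GOF mice carried in addition a reverse tetracycline transactivator under the Krt14 promoter and the gain-of-function (GOF) allele of Survivin. The Survivin protein, encoded by Birc5, is an inhibitor of apoptosis and a part of the mitotic chromosomal passenger complex. Per the labels, YFP-positive, CD34-negative epithelial cells with high integrin α6 were sorted, and the design text adds that GOF cells were taken for SmoM2-YFP and Survivin-mCherry. The sources used here do not give age, number or sex of the mice or times of induction. The study set the GOF cells against the control cells to ask what Survivin does when hedgehog-driven skin tumours begin.

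Interferons are secreted proteins that bind receptors on nearly every nucleated cell. Type I and type III interferons signal through Jak kinases to transcription factors, Irf9 among them, that bind the interferon-stimulated response element in promoters, while interferon gamma acts mainly at gamma-activated sites. Isg15 is a ubiquitin-like protein that is conjugated to other proteins during the response. Ifit1 binds foreign RNA, and Ifit3 belongs to the same gene family. Oasl2 belongs to the oligoadenylate synthetase family, and Bst2, or tetherin, holds budding virus particles at the cell surface. Rtp4 is a receptor transporter protein with antiviral activity, and Irf7 is the transcription factor that amplifies type I interferon genes. Keratinocytes can mount this response to virus, to self nucleic acids or to cytokines from immune cells.

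In the mm10 build with GENCODE vM21, all 7 were protein-coding genes on 6 chromosomes. Isg15 (ENSMUSG00000035692) lay at chr4:156199424-156200818 on the minus strand, Oasl2 (ENSMUSG00000029561) at chr5:114896936-114912234 on the plus strand and Irf7 (ENSMUSG00000025498) at chr7:141262706-141266481 on the minus strand. Bst2 (ENSMUSG00000046718) lay at chr8:71534255-71537456 on the minus strand and Rtp4 (ENSMUSG00000033355) at chr16:23520291-23614222 on the plus strand. Ifit3 (ENSMUSG00000074896) at chr19:34583531-34588731 and Ifit1 (ENSMUSG00000034459) at chr19:34640871-34650009 were both on the plus strand of chromosome 19. Some counts are uncertain on sequence grounds. Of the 31-base words in the last 500 bases of Ifit3 transcripts, 24.0% also occurred in its near copy Ifit3b, Rtp4 overlapped Masp1 on the opposite and Gm45338 on the same strand, and Irf7 overlapped Phrf1 on the opposite strand.

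The promoters of 4 of these genes carried the letters of a response element, and those stretches are shown because they are what these genes share outside the counts. Both strands of the 250 bases before the RefSeq start (GRCm38.p6) were searched for 2 patterns. The interferon-stimulated response element type was GAAA, any 2 bases and GAAA again, and the gamma-activated site type was TTC, any 3 bases and GAA. The sequence is given 5′ to 3′ on the gene's own strand, with the response element matches in capitals (as a pair of TTTC where the match is on the other strand).
Isg15, chr4:156200855-156200916, minus strand: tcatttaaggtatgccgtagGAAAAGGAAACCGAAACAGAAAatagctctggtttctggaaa
Ifit1, chr19:34640765-34640833, plus strand: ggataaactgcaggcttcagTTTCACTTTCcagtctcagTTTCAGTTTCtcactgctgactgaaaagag
Ifit3, chr19:34583353-34583436, plus strand: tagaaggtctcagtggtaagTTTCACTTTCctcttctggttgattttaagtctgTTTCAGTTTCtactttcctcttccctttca
Bst2, chr8:71537567-71537622, minus strand: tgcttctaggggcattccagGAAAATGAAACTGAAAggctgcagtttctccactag

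Isg15 held 3 overlapping matches that began 78, 72 and 66 bases before the start. Ifit1 held 2 on the reverse strand at 104 and 85 bases, and Ifit3 held 2 on the reverse strand at 156 and 122 bases with the same letters in the same order. Bst2 held 2 overlapping matches at 130 and 124 bases, and a gamma-activated site type match that began at 136 bases and ran into them. The windows of Oasl2 and Irf7 held no response element match, and Rtp4 was not searched. A response element match occurred in 978 of 32851 RefSeq promoters of this length (2.98%) and in 17 of 66 promoters of other interferon-stimulated genes (25.8%). The gamma-activated site type occurred in 7.02% of all promoters. A match describes letters and is not a measured binding site.

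The GOF library held 11438 barcodes with 126329382 unique molecular identifiers (UMIs), and the control library 24844 barcodes with 146216083 UMIs. The filter of at least 1500 genes per cell and no more than 10% mitochondrial UMIs kept 6922 cells in the GOF library (median 12652 UMIs) and 10993 in the control library (median 7717 UMIs), beside the 8046 cells that the labels state for the control genotype. All kept cells had UMIs of at least 3 of 16 keratinocyte markers, as the epithelial label says. Cells that also had 3 or more markers of an immune, melanocyte, fibroblast, endothelial, Merkel or erythroid list (300 in the GOF and 774 in the control library) were set apart, which left 6622 GOF and 10219 control keratinocyte-marker cells. In these, Birc5 stood at 783 CPM (UMIs scaled to a group total of 1000000) in the GOF and 55.3 CPM in the control library. The libraries also differed in sex, since Xist, the RNA of the inactive X chromosome, stood at 557 CPM in the GOF and 3.15 CPM in the control cells. By Xist against 4 Y-linked genes, 3725 GOF cells were female-called and 1852 male-called, against 26 and 7402 control cells. The libraries shared 22 barcodes among kept cells. With 1 library per genotype there is no replicate, so no test was made: every interval below is an exact 95% interval, limits for a count of 0 are set at 3 counts, and both cover counting error only.

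All 7 genes stood higher in the GOF library, with Ifit3 and Ifit1 at the largest ratios. Summed over the 7 genes, GOF keratinocyte-marker cells had 26.1 CPM (25.2 to 27.1) and control cells 8.12 CPM (7.56 to 8.71), a ratio of 3.22 (2.97 to 3.49). All 7 were at least 1.5-fold higher, among them 6 of the 6 with at least 50 pooled UMIs, where 6.34% of 14608 genes with that many were higher and 5.5% lower by that measure. The median log2 ratio was 2.22 over the 7 genes and 0.07 over all genes tested.

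Among the effectors, Isg15 had 1042 UMIs in GOF and 273 in control cells, at 9.78 and 2.86 CPM, a ratio of 3.42 (2.99 to 3.92). Ifit1 had 316 UMIs in GOF and 38 in control cells, at 2.97 and 0.398 CPM, a ratio of 7.45 (5.31 to 10.7). Ifit3 was hardly detected, with 26 UMIs in GOF and 3 in control cells and a ratio of 7.77 whose interval ran from 2.38 to 40.1. It is the member that did not reach 50 pooled UMIs. Rtp4 had 204 UMIs in GOF and 32 in control cells, at 1.92 and 0.335 CPM, a ratio of 5.71 (3.92 to 8.58). Oasl2 had 384 and 74 UMIs in GOF and control cells, at 3.61 and 0.775 CPM, a ratio of 4.65 (3.62 to 6.05). The intervals of these 5 genes all lay above 2-fold. The transcription factor gene Irf7 stood at 4.14 CPM in GOF and 1.40 CPM in control cells (441 and 134 UMIs), a ratio of 2.95 (2.43 to 3.61). Bst2 moved least, at 3.47 CPM in GOF and 2.31 CPM in control cells (370 and 221 UMIs). Its ratio of 1.501 (1.27 to 1.78) lay at the threshold, and its interval did not overlap that of any other member.

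Divided by sex call, the excess sat in female-called GOF cells and was not seen in male-called cells of the same library. The summed level was 37.4 CPM (35.9 to 39.1) in female-called and 6.22 CPM (5.36 to 7.18) in male-called GOF cells, and 8.03 CPM (7.41 to 8.69) in male-called control cells. Female-called over male-called GOF cells gave a ratio of 6.02 (5.18 to 7.03), at median depths of 12230 and 12823 UMIs. In that comparison Isg15 stood at 14.6 CPM in female-called against 2.06 CPM in male-called cells, a ratio of 7.06 (5.45 to 9.29). Ifit1 had 271 UMIs in female-called and 3 in male-called cells, a ratio of 47.4 with an interval of 16.04 to 231. Ifit3 had 22 UMIs in female-called and 0 in male-called cells, which makes it at least 3.84-fold higher against a floor of 3 UMIs over the male-called cells, and 2.87-fold by the lower bound of the exact interval. Both Ifit genes were thus nearly undetected in male-called GOF cells.

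Rtp4 was at 2.70 CPM in female-called against 0.166 CPM in male-called GOF cells (16.3-fold, 6.82 to 50.8), and Oasl2 at 5.09 and 0.732 CPM in the same order (6.96-fold, 4.51 to 11.3). Irf7 was at 5.46 CPM in female-called against 1.33 CPM in male-called cells (4.10-fold, 2.95 to 5.85), and Bst2 at 4.50 and 1.83 CPM (2.46-fold, 1.83 to 3.35). So each of the 7 genes was higher in the female-called cells, with Bst2 again the least apart. Of 13305 genes with enough UMIs, 5.41% were at least 1.5-fold higher and 3.92% lower in the same comparison, and the median log2 ratio was 2.81 over the 6 genes with a ratio and 0.03 over all genes. Birc5 was at 736 CPM in female-called against 895 CPM in male-called GOF cells, so it differed between the sex calls in the direction opposite to the 7 genes.

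Between the libraries within male-called cells, no member was higher in the GOF library. The summed ratio was 0.775 (0.654 to 0.914). Without cells that had 3 or more of the 7 genes, which in the GOF library were 0 of the male-called cells, it was 0.989 (0.831 to 1.17). Isg15 stood at 2.06 CPM in GOF and 2.80 CPM in control cells (ratio 0.736, 0.546 to 0.981), and Ifit1 at 0.0998 and 0.391 CPM on 3 and 30 UMIs (ratio 0.255, 0.0499 to 0.821). The intervals of Rtp4 (ratio 0.491, 0.147 to 1.30), Oasl2 (0.878, 0.515 to 1.44), Irf7 (0.963, 0.652 to 1.40) and Bst2 (0.812, 0.588 to 1.11) included 1, and Ifit3 had 0 UMIs in GOF and 2 in control cells. Over 13598 genes, 4.97% were at least 1.5-fold higher and 7.16% lower here, and the median log2 ratio was 0.04, against -0.24 over the 4 members with at least 50 pooled UMIs. The 26 female-called control cells had 0 member UMIs, which allows up to 16.3 CPM, below the level of the female-called GOF cells. These 26 cells had 110 Xist UMIs, at 596 CPM beside 897 CPM in female-called GOF cells. The rule asks for as little as 1 Xist UMI, and the other cells of this library were nearly all male-called or without a call. For this reason the 26 cells were not taken as a sample of female control cells. Sex, mouse and genotype therefore cannot be told apart for the level in female-called GOF cells.

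Cells with both Xist and Y-linked UMIs (675 in the GOF library, median 19302 UMIs) stood at 25.3 CPM (22.9 to 27.9), between the female-called and the male-called cells. Cells with neither stood at 15.2 CPM (11.3 to 19.96) in the GOF library (370 cells) and at 8.44 CPM (7.15 to 9.89) in the control library (2735 cells). A single cell held 23 of the 51 member UMIs of the GOF cells with neither, and without it they stood at 8.36 CPM (5.55 to 12.1). The female-called GOF cells came highest and the cells with both next, with intervals that did not overlap, while without that cell the GOF cells with neither and the male-called GOF cells did not differ beyond their intervals. The male-called control cells and the control cells with neither did not differ beyond their intervals.

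**Figure D1:**
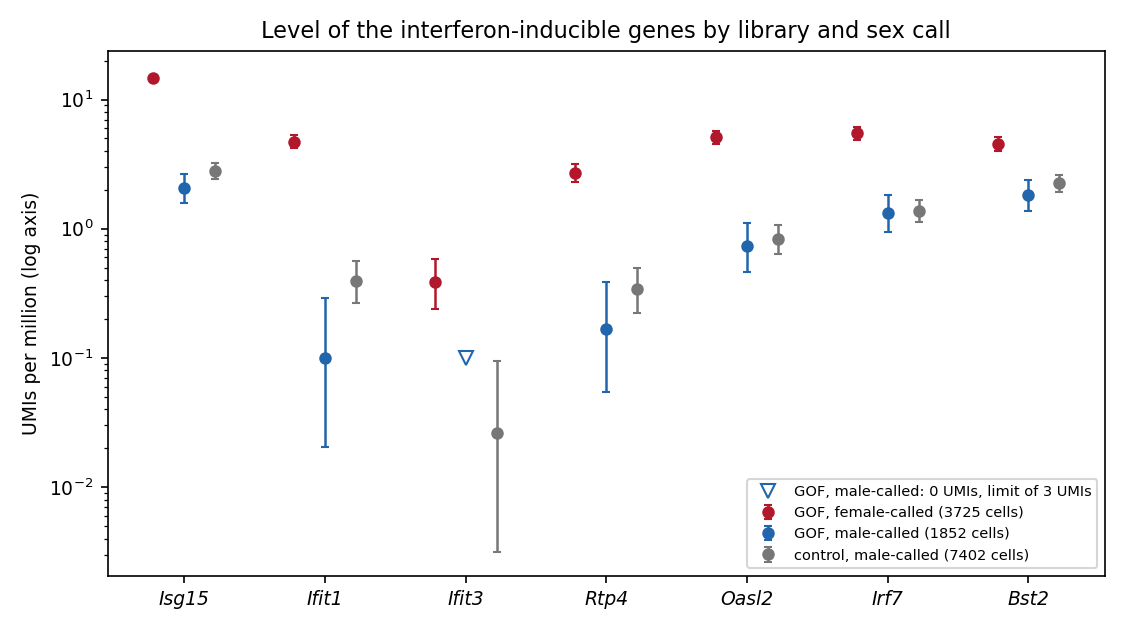
Level of each of the 7 genes in CPM (log axis) in female-called GOF, male-called GOF and male-called control keratinocyte-marker cells, with exact 95% intervals for counting error; the open triangle marks the limit that 0 UMIs allow. Female-called GOF cells stand highest for every gene, and male-called GOF cells stand below the male-called control cells for the 6 genes with UMIs there.

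Few cells carried these genes, and in the GOF library a small number held most of the summed member UMIs. At least 1 member UMI was found in 15.3% of GOF (14.5 to 16.2) and 5.39% of control (4.96 to 5.85) keratinocyte-marker cells at median depths of 12561 and 7508 UMIs. After each cell was thinned to 3000 UMIs the shares were 4.66% (4.16 to 5.19) and 2.005% (1.74 to 2.30) in the same order. Most positive cells had a UMI of 1 member alone, 781 of 1016 in the GOF and 500 of 551 in the control library.

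Cells with UMIs of 3 or more of the 7 genes are called carriers here. There were 121 carriers among 6922 kept GOF cells (1.75%, 1.45 to 2.09) and 23 among 10993 kept control cells (0.209%, 0.133 to 0.314). Just inside this bound, 45 GOF and 16 control cells had exactly 3 members, and just outside it 135 GOF and 53 control cells had 2. All 7 were present in 9 GOF cells and in 0 control cells. The carriers held 1750 of the 3008 member UMIs of kept GOF cells (58.2%), and 19.6% in the control library. A single GOF cell held 169 member UMIs, of which 102 were of Isg15, and the highest control cell held 23. The carriers were deeper than other cells, with a median of 18055 against 12596 UMIs in the GOF library and 14420 against 7709.5 in the control library. After thinning to 3000 UMIs, 3 or more members were found in 0.454% of GOF (0.306 to 0.647) and 0.0494% of control (0.01603 to 0.115) keratinocyte-marker cells.

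The sex call divided the carriers as it divided the levels. Of the 121 GOF carriers, 103 were female-called, 16 had both Xist and Y-linked UMIs, 2 had neither and 0 were male-called. A male call needs 0 Xist UMIs, so a male cell with a stray Xist UMI would count as having both. Keratinocyte-marker GOF cells with both were deep (median 19302 UMIs), and 15 of 675 were carriers (2.22%). Whether any of these were male cells was not tested. Within keratinocyte-marker cells carriers made up 97 of 3725 female-called GOF cells (2.604%, 2.12 to 3.17) and 0 of 1852 male-called GOF cells, which allows a share of up to 0.162%. The 23 control carriers were 19 male-called cells and 4 with neither. Thinned to equal depth, the share was 0.780% (0.523 to 1.12) in female-called GOF, 0 of 1852 in male-called GOF and 0.0408% (0.00841 to 0.119) in male-called control cells.

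**Figure D2:**
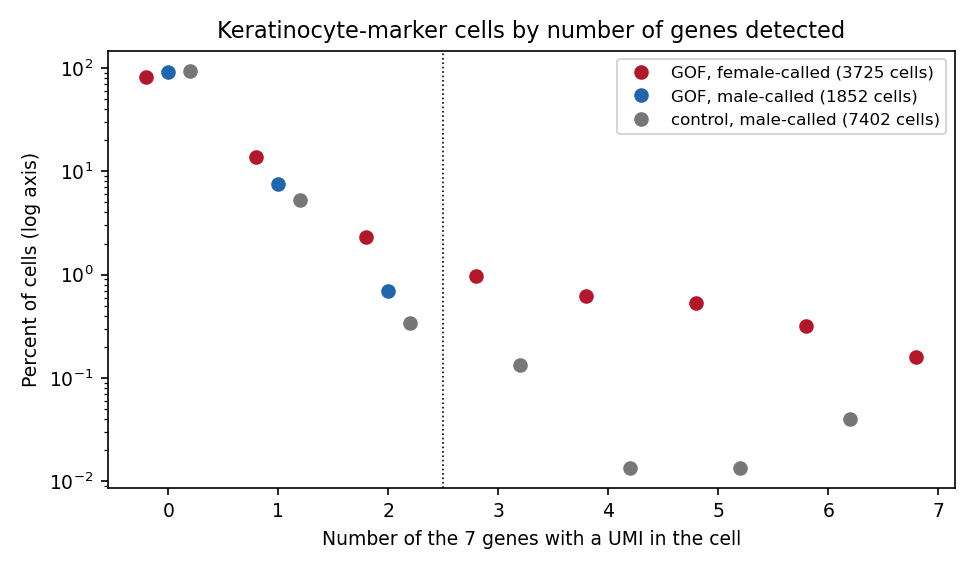
Percent of keratinocyte-marker cells (log axis) by the number of the 7 genes with a UMI, in female-called GOF, male-called GOF and male-called control cells, not thinned; counts of 0 are not drawn, and the dotted line marks the bound of 3. Female-called GOF cells extend to all 7 genes, and male-called GOF cells end at 2.

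Each gene's UMIs were concentrated in the carriers to a different degree, which the definition of a carrier favours for every member. In the GOF library 83.2% of Ifit1 UMIs lay in carriers, 74.5% of Ifit3, 73.0% of Rtp4, 60.2% of Isg15 and 59.5% of Oasl2, but 41.3% of Irf7 and 40.8% of Bst2. In the control library the shares ran from 12.7% for Bst2 to 42.9% for Ifit1. Without the carriers the summed level was 11.1 CPM in GOF and 6.51 CPM in control keratinocyte-marker cells, a ratio of 1.71 (1.55 to 1.89). Oasl2 remained 2.82-fold (2.05 to 3.93), Ifit1 2.56-fold (1.49 to 4.57) and Irf7 2.02-fold (1.62 to 2.54) higher in the GOF cells, whereas Bst2 stood at 0.981 (0.805 to 1.196). Here 5 of the 6 members with at least 50 pooled UMIs were at least 1.5-fold higher, beside 6.07% of 14574 genes higher and 5.54% lower. Within the GOF library without carriers, female-called over male-called cells still gave 2.28 (1.94 to 2.69), at 14.2 and 6.22 CPM, and 3 of the 4 members with at least 50 pooled UMIs were at least 1.5-fold higher there, beside 5.12% of 13258 genes higher and 4% lower. A lower-level difference thus remained outside the carriers in the sum of both comparisons.

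In the GOF library each of the genes was found with another member more often than cells without it had one, and in the control library 6 of the 7 were, the exception being Ifit3, with 0 of 3 cells against 5.36%. Of 125 GOF keratinocyte-marker cells with Ifit1, 80.0% had another member, against 13.7% of the cells without Ifit1. For Isg15 the shares were 39.3% of 453 cells with it and 9.13% of cells without it, and for Bst2 35.5% of 262 cells and 11.9%. In the control library the shares were 59.3% of 27 cells with Ifit1 and 5.14% of those without, but 9.47% and 3.60% for Bst2. Across the 6922 kept GOF cells the log level of each gene correlated with the sum of the other 6 at r between 0.264 for Ifit3 and 0.553 for Ifit1, and across the 10993 control cells between 0.0389 for Ifit3 and 0.238 for Isg15. The cells of a library share its depth and handling, deeper cells have more of any gene, and these values describe the 2 libraries.

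Keratinocyte markers did not set the carriers apart from the other cells. Krt14 and Krt5, the keratins of basal epidermis, were present in all 121 GOF carriers, which had a median of 15 of the 16 keratinocyte markers (lowest 11), against 14 (lowest 6) in the other 6801 kept GOF cells. Carriers that met the immune or melanocyte list had at least 13 of the 16 as well, so these UMIs do not separate lineages. Of the 121, 3 had 3 or more of 18 immune markers (2.48%), against 62 of the other cells (0.912%), and 4 had 3 or more melanocyte markers (3.31%), against 222 (3.26%). That left 114 keratinocyte-marker carriers. Of the 23 control carriers 17 were keratinocyte-marker cells, 6 met the melanocyte list (26.1%, against 6.01% of the other control cells) and 1 the immune list, counting a cell on each list it met.

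Over all 121 GOF carriers and all other kept GOF cells, with none set apart, the immune list summed to 50.9 CPM in carriers and 49.4 CPM in other cells. Ptprc, the common leukocyte antigen, had 3 UMIs in carriers and 102 in other cells, at 1.06 and 0.923 CPM, and 4 of the 18 immune markers were at 0 in the carriers. The melanocyte list stood at 206 CPM in carriers and 280.4 CPM in other cells, and the fibroblast list at 1042 and 646 CPM. The 97 female-called keratinocyte-marker carriers and the 3628 other female-called cells of that kind had no cell with 3 markers of these lists by definition, which lowers the lists on both sides. Between them the immune list was at 29.4 CPM in carriers and 23.8 CPM in other cells, and 56 of the 60 carrier UMIs were of Trbc2, a T cell receptor constant gene that also had 1201 UMIs in the other cells. The T cell list stood at 59.8 and 53.7 CPM, the Langerhans or macrophage list at 131 and 143 CPM, and the fibroblast list at 969 and 760 CPM in the same order. The fibroblast list was the furthest apart in both comparisons, and its part in the result was not tested.

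**Figure D3:**
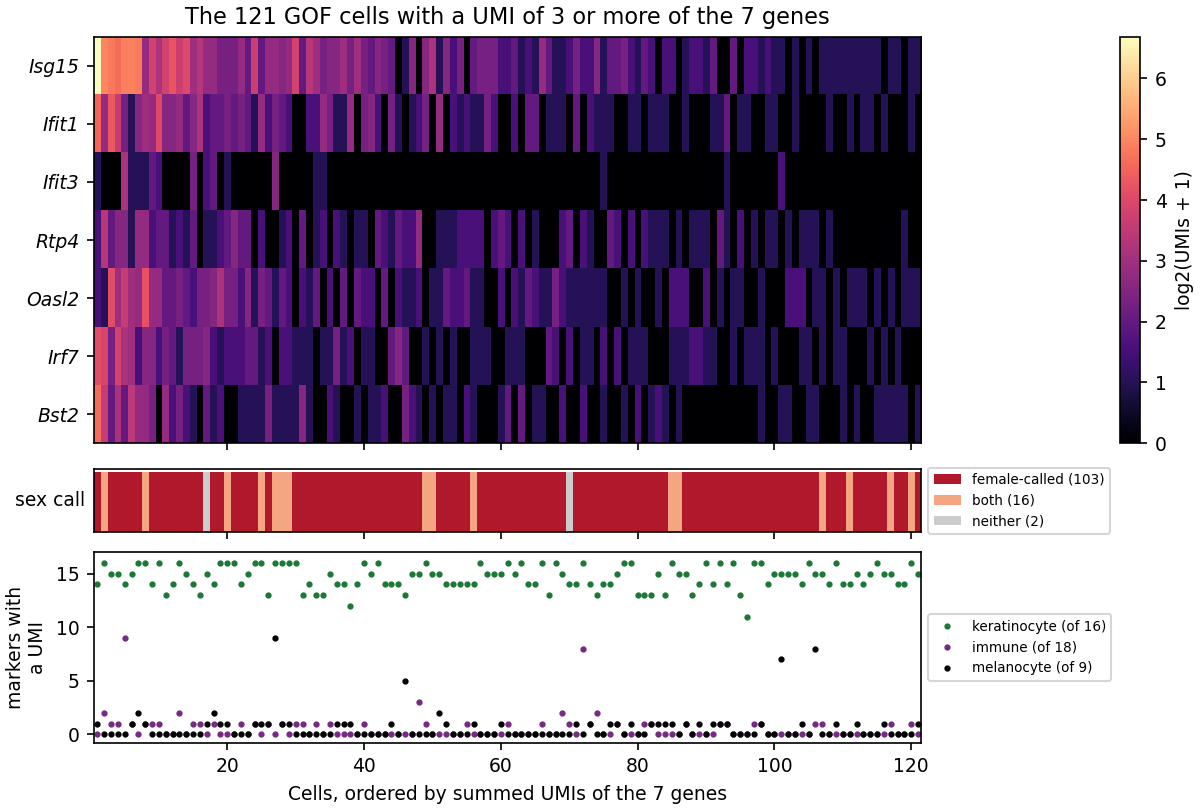
The 121 GOF carriers, ordered by summed member UMIs: log2(UMIs + 1) of each gene (top), sex call (middle), and number of keratinocyte, immune and melanocyte markers with a UMI (bottom). Keratinocyte markers number at least 11 in every cell, while immune and melanocyte markers lie at 0 to 2 except in 7 cells.

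Cells with immune or melanocyte markers had UMIs of the genes too, so no cell type served as a negative. These cells also met the keratinocyte list, and whether the UMIs came from the other lineage was not tested. The levels of other lineages were not divided by sex call. In cells with 3 or more immune markers the summed level was 66.4 CPM (54.6 to 80.1) in the GOF library (65 cells), where 1 cell held 68 of 110 member UMIs and the others stood at 25.6 CPM (18.5 to 34.7), and 13.5 CPM (8.57 to 20.3) in the control library (91 cells). Melanocyte-marker cells stood at 23.1 CPM (19.1 to 27.8) in 226 GOF cells and 11.5 CPM (9.70 to 13.6) in 665 control cells. Fibroblast-marker cells stood at 30.8 CPM (19.5 to 46.2) in 52 control cells, on 23 member UMIs. The 6 GOF fibroblast-marker cells had 0 member UMIs, with an exact interval up to 29.6 CPM. After thinning, any member was found in 6.15% of GOF immune-marker cells (1.70 to 15.0, median depth 20103 UMIs before thinning) and 7.52% of GOF melanocyte-marker cells (4.44 to 11.8, median 17441 UMIs), beside 4.66% in GOF keratinocyte-marker cells. Female-called GOF keratinocyte-marker cells had 6.59% (5.81 to 7.44), and male-called cells of the same library 1.78% (1.23 to 2.49).

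Antigen presentation genes stood far higher in the carriers than in other cells. MHC class II genes, which present peptides to helper T cells and are induced in keratinocytes by interferon gamma, summed to 462 CPM (433 to 492) in the 97 female-called carriers and 21.4 CPM (20.2 to 22.7) in the other female-called cells. The invariant chain gene Cd74 stood at 223 CPM in carriers and 8.27 CPM in other cells, H2-Ab1 at 152 and 7.02 CPM, H2-Aa at 73.5 and 1.88 CPM and H2-Eb1 at 12.7 and 4.25 CPM. At least 3 of these 4 genes were found in 24 of the 97 carriers. The class I light chain B2m stood at 1317 CPM in carriers and 280.2 CPM in other cells. Of GOF keratinocyte-marker cells with 3 or more class II genes 29 of 65 were carriers, beside 1.72% of all GOF keratinocyte-marker cells. In the control library 0 of 88 were carriers, beside 0.166% of all control keratinocyte-marker cells. A share as low as 0.166% could not be seen in 88 cells, but one like 29 of 65 could. By sex call, carriers were 24 of 49 female-called and 0 of 5 male-called GOF cells with 3 or more class II genes. Among male-called control cells of that kind they were 0 of 52. Class II genes also mark Langerhans cells. Their langerin gene Cd207 had 1 UMI in the 97 carriers (0.490 CPM) and 13 in the other female-called cells (0.235 CPM). Both counts were taken after cells with 3 immune markers had been set apart, and a contribution of Langerhans cells was not tested.

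In epidermal state the carriers resembled the other female-called cells in some lists and not in others. Hedgehog genes such as Gli1 and Ptch1 summed to 576 CPM (543 to 609) in carriers and 561 CPM (555 to 567) in other cells, and Birc5 stood at 715 CPM (679 to 753) and 737 CPM (729 to 744). Cycling genes were at 701 CPM in carriers and 933 CPM in other cells, suprabasal genes at 8258 and 11349 CPM, sebaceous genes at 75.4 and 368 CPM and tail scale genes at 1292 and 3194 CPM. Basal genes were also lower, at 3611 CPM (3529 to 3695) in carriers and 4158 CPM (4141 to 4175) in other cells. Upper follicle genes stood the other way, at 4665 CPM in carriers and 3610 CPM in other cells. YFP, the reporter of the SmoM2 allele, stood at 11.8 CPM (7.53 to 17.5) in carriers and 8.61 CPM (7.85 to 9.42) in other cells.

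The difference between sex calls in the GOF library lay beyond the intervals in every state list but the sebaceous one. States were called by 3 or more markers after thinning, and a cell may meet several. Of the female-called GOF cells, 82.6% met the suprabasal and 73.0% the basal list. The lists thus share many cells and are not separate results. In upper follicle cells the members summed to 61.3 CPM (55.3 to 67.8) in female-called GOF, 5.24 CPM (3.39 to 7.73) in male-called GOF and 6.42 CPM (5.35 to 7.65) in male-called control cells. A single cell held 169 of the 382 UMIs of the female-called GOF cells there, and without it they stood at 34.3 CPM (29.9 to 39.3). In hedgehog cells the levels were 31.8 CPM (28.2 to 35.7), 8.32 CPM (5.80 to 11.6) and 9.71 CPM (8.19 to 11.4) in the same order, and in cycling cells 21.1 CPM (18.4 to 24.0), 5.22 CPM (3.497 to 7.499) and 8.76 CPM (7.53 to 10.1). Basal, suprabasal and tail scale cells had 36.8, 39.4 and 21.8 CPM in female-called GOF and between 4.23 and 5.91 CPM in male-called GOF cells. The male-called GOF tail scale level rested on 4 UMIs in 72 cells. Sebaceous cells were the exception, with overlapping intervals. They stood at 14.4 CPM (8.91 to 22.0) in 46 female-called GOF, 8.75 CPM (5.48 to 13.3) in 86 male-called GOF and 12.2 CPM (9.80 to 15.0) in 546 male-called control cells. The female-called and male-called GOF levels there rested on 21 and 22 UMIs, too few to tell a difference from none.

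The genes whose log level was most like the summed level of the 7 across kept GOF cells were mostly interferon-induced GTPases. Iigp1, an immunity-related GTPase, came first at r = 0.495, followed by the guanylate-binding protein gene Gbp2 at 0.448, Apol9a at 0.432 and Cxcl9, a chemokine that draws T cells, at 0.382. Ifi47 (0.376), Xaf1 (0.375), Oas3 (0.373), Gbp5 (0.370), Igtp (0.359) and Gbp6 (0.355) followed. In the control library the same 10 genes had r between 0.0152 for Igtp and 0.174 for Ifi47. Iigp1 was at 271 CPM in GOF carriers and 2.17 CPM in other kept GOF cells, and was found in 49.6% of carriers. Cxcl9 was at 701 CPM in carriers and 5.23 CPM in other cells but was found in 28.9% of carriers, so its UMIs came from fewer cells. Xaf1 was the most widespread of the 10, in 71.1% of carriers, at 76.6 CPM in carriers and 5.18 CPM in other cells.

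Over the wider pathway, induced genes stood higher in the GOF library while ligands were nearly undetected. Of 68 other interferon-stimulated genes 66 were in the tables and 58 had at least 50 pooled UMIs, of which 36 were at least 1.5-fold higher, 1 (Helz2) was lower and 21 lay between, beside the 6.34% higher and 5.5% lower of all genes, with a median log2 ratio of 0.78. Iigp1 was at 8.72 CPM in GOF and 0.0733 CPM in control keratinocyte-marker cells (119-fold, 57.5 to 297), and Gbp2 at 5.97 and 0.241 CPM (24.8-fold, 16.4 to 39.4). Ifi47 was at 1.54 CPM in GOF and 0.0628 CPM in control cells (24.5-fold, 11.02 to 67.7), and Zbp1, a sensor of left-handed nucleic acid, had 67 UMIs in GOF and 1 in control cells (60.1-fold, 10.4 to 2407). These 4 had the largest ratios of the list.

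In male-called cells 45 of these genes could be compared, and 7 were higher (Rnf213, Samd9l, Lgals9, Igtp, Ddx58, Sp100 and Ifi203), 2 were lower (Helz2 and Ifi27l2a) and 36 lay between, beside 4.97% higher and 7.16% lower of all genes, with a median log2 ratio of 0.08. Iigp1 there had 12 UMIs in GOF and 6 in control cells (5.11-fold, 1.77 to 16.6). Between female-called and male-called GOF cells 31 of 55 were higher and 1 (Ifi203) was lower, beside 5.41% and 3.92% of all genes, and the median log2 ratio was 0.82. Ifi27l2a was at 61.6 CPM in female-called against 17.9 CPM in male-called GOF cells, and at 37.5 CPM in male-called control cells. The comparisons share cells, so their counts are not independent of each other.

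**Figure D4:**
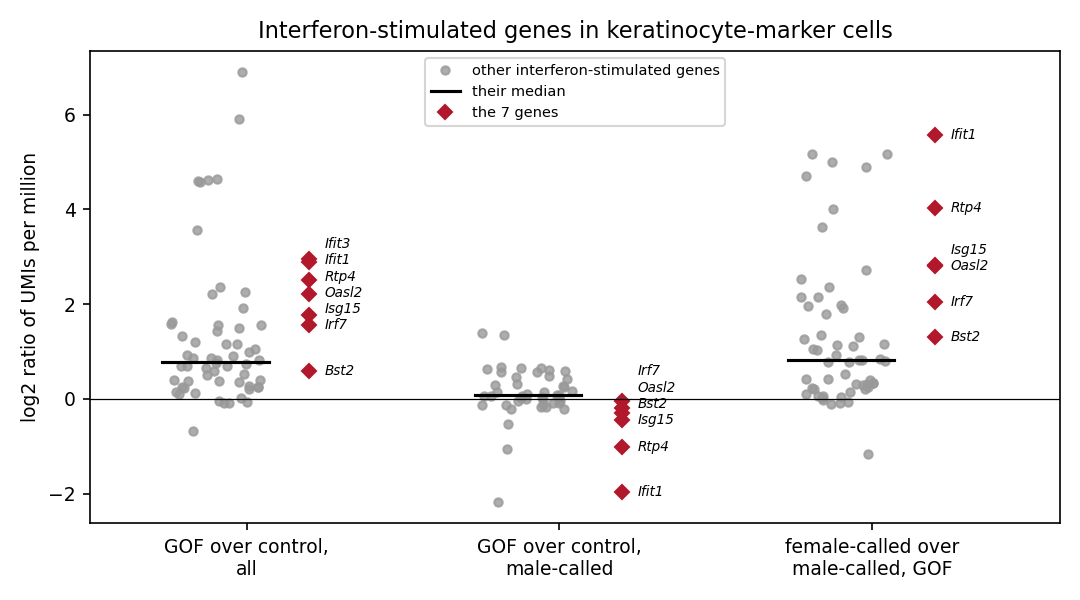
log2 ratio of CPM of other interferon-stimulated genes with at least 50 pooled UMIs (grey, black line at their median) and of the 7 genes (red) in 3 comparisons of keratinocyte-marker cells. The 7 genes are drawn without a minimum of pooled UMIs, and Ifit3 only where both sides had UMIs. The red points lie above 0 in the first and last comparison and below 0 between male-called cells, where the grey median is 0.08.

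Of 11 interferon ligand genes, 9 had 0 UMIs in the kept cells of both libraries. Ifnk, the interferon kappa of keratinocytes, had 1 UMI in GOF and 22 in control cells, and Ifng, the ligand made by T and NK cells, had 1 and 0. The sort kept YFP-positive cells, so cells outside the gate that might make interferon were not measured.

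Receptors and signal transducers lay closer to the control level, with a median log2 ratio of 0.28 over 17 genes. Of the 17, 3 were at least 1.5-fold higher in the GOF library and 0 lower, beside 6.34% and 5.5% of all genes. This list shares genes with that of other interferon-stimulated genes, so their counts are not independent. Irf1 stood at 9.24 CPM in GOF and 5.52 CPM in control cells (1.67-fold, 1.504 to 1.86), Irf9 at 15.1 and 9.52 CPM (1.58-fold, 1.46 to 1.72) and Irf2 at 31.5 and 23.7 CPM (1.33-fold, 1.26 to 1.40). In male-called cells Irf9 stood at 0.896 (0.773 to 1.04), while Irf1 was still 1.59-fold (1.36 to 1.86) and Irf2 1.31-fold (1.204 to 1.41) higher in the GOF cells. Irf9 thus followed the pattern of the 7 genes and Irf1 and Irf2 did not.

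Nucleic acid sensors were at least 1.5-fold higher for 6 of 12 and lower for 0 of 12, beside 6.34% and 5.5% of all genes. Among the 6, Zbp1, Ddx58, Ifih1 and Dhx58 were already counted with the other interferon-stimulated genes, so they are not a separate result. Ddx58, which encodes the RNA sensor RIG-I, was at 9.49 CPM in GOF and 5.20 CPM in control cells (1.83-fold, 1.64 to 2.04), and 1.60-fold (1.36 to 1.89) within male-called cells. Tmem173, the STING adaptor of DNA sensing, was at 1.29 CPM in GOF and 0.482 CPM in control cells (2.67-fold, 1.90 to 3.81) and 3.47-fold (2.21 to 5.50) within male-called cells, yet lower in female-called than in male-called GOF cells (0.924 and 1.63 CPM; 0.567, 0.377 to 0.854). Ifih1, the RNA sensor MDA5, was 1.67-fold (1.49 to 1.86) higher overall and stood at 1.03 (0.853 to 1.25) within male-called cells. Ddx58 and Tmem173 were therefore higher in the GOF library in the sex in which the 7 genes were not.

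Among 11 negative regulators, 2 were higher and 0 lower, beside 6.34% and 5.5% of all genes. These were Socs1 and Usp18, the latter already counted with the other interferon-stimulated genes. Usp18, which removes Isg15 from its targets and blocks the type I receptor, was at 1.56 CPM in GOF and 0.304 CPM in control cells (5.13-fold, 3.44 to 7.90), and at 2.32 CPM in female-called against 0.399 CPM in male-called GOF cells (5.81-fold, 3.22 to 11.5). Socs1, an inhibitor of Jak kinases, was at 11.2 CPM in GOF and 7.26 CPM in control cells (1.54-fold, 1.40 to 1.69). Samhd1, a nucleotide hydrolase, and Ptpn2, a phosphatase of Jak1, stood at 1.29-fold (1.18 to 1.40) and 1.28-fold (1.22 to 1.34).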

How the data were processed

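The deposited files hold whole-number UMI counts per gene and barcode that were not normalized. Per the file headers they are output of Cell Ranger 6.1.1. The build mm10, Seurat 4.2.0 and R 4.3.0 are named in the submitters' processing notes. Genes, lists and members were chosen with earlier results of these data known. Counts were summed over cells of a group and scaled to that group's total (CPM), with exact Poisson intervals, exact conditional intervals for ratios and Clopper-Pearson intervals for shares, at 95%. Sex calls used Xist against Ddx3y, Eif2s3y, Kdm5d and Uty. For shares, cells were thinned to 3000 UMIs (seed 1), leaving out 11 GOF and 92 control keratinocyte-marker cells. The automatic threshold of scrublet marked 0 cells in either library and thus did not work, so doublets were not removed; taking out the top 6% of scores (418 GOF and 692 control cells) was an alternative. Pathway lists follow textbook roles; named genes were the 4 with the largest log2 ratio in each list and the 10 most correlated genes with at least 100 UMIs, with mitochondrial, ribosomal protein, sex and unnamed genes left out. One of the named genes is not reported here. Correlations are Pearson's on log counts per 10000. Of the features, 32158 were found in GENCODE vM21. Ratio and thinning steps were checked on simulated counts. Tools were Python 3.11.15, numpy 2.4.6, scipy 1.17.1, pandas 2.3.3, scanpy 1.11.5 and matplotlib 3.10.9.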

Additional observations from a re-analysis of the deposited data

Results flagged for a closer look

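The barcodes left out by the filter on cells carried the 7 genes as well. Their summed level was 16.03 CPM (13.9 to 18.4) over 4516 GOF barcodes and 5.26 CPM (4.55 to 6.05) over 13851 control barcodes, a ratio of 3.05 (2.496 to 3.72). At least 3 members were found in 4 of these GOF barcodes and in 0 of these control barcodes. This signal lies outside the cells compared above, in barcodes with few genes or a high mitochondrial share, and its origin was not tested.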

How the results depend on the processing

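Leaving out carriers lowers every level by construction. It gave a summed GOF over control ratio of 1.71, 0.989 (0.831 to 1.17) within male-called cells and 2.28 for female-called over male-called GOF cells, and turned Ifit3 to 0.917 and Bst2 to 0.981. A limit of 5% mitochondrial UMIs gave a summed ratio of 3.71, with Isg15 at 3.93 and Bst2 at 1.85. Without Bst2 the ratios were 3.90 between libraries and 7.499 between sex calls. The share with 3 or more members was 0.166% of GOF cells at 2000 UMIs, and 1.72% of GOF and 0.166% of control cells without thinning. With 2 or more members it was 0.953% of GOF and 0.118% of control cells, and with 4 or more 0.227% of GOF cells. Setting lineages apart by 2 markers left 81.0% of GOF carriers as keratinocyte-marker cells, against 94.2% by 3. At 2-fold, 22 of the 58 other interferon-stimulated genes with at least 50 pooled UMIs were higher and 0 lower. The share of all genes at 2-fold was not computed, so that count has no background beside it. Helz2 was not lower under the 5% limit or with doublets removed. By Spearman correlation 4 of the 10 most alike genes were shared. For these changes the cause was not tested beyond their construction. Of the other values, 74 summaries and 54 values of single members stayed within their intervals or within 1.5 times a count. However, Ifit3, whose main ratio rested on 3 control UMIs, stood at 22.8 (3.74 to 938) with doublets removed. Bst2 lay below 1.5-fold under filters at 1000 and 2000 genes, doublet removal, median-of-ratios scaling and both other lineage rules (lowest 1.38). Chosen after the data were seen, leaving out the cell with most member UMIs gave 3.02 between libraries and 5.55 between sex calls, leaving out the top cell of each group moved 3 GOF levels by over 1.5 times (cells with neither sex call, immune-marker cells and female-called upper follicle cells, given with their values above), and sex calls by 2 UMIs gave 0.798 within male-called cells and 5.45 between sex calls. No paired analysis was possible because each genotype has 1 library. Depth limits Ifit3, which had 3 UMIs in control cells.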
